A study of Rattus norvegicus with 6 samples.

Results

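miR-199a and miR-214 are microRNAs (miRNAs), short RNAs that guide Argonaute proteins to messenger RNAs and lower their translation and stability. A miRNA is cut from a hairpin, and either arm of the hairpin, the 5p or the 3p strand, can be kept as the mature miRNA. In mouse both hairpins are cut from the long noncoding transcript Dnm3os, which runs antisense to the gene Dnm3 and is switched on by the transcription factor Twist1 in embryonic mesenchyme. They are known as miRNAs of fibroblasts and other mesenchymal cells.

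All table entries whose names begin with miR-199a or miR-214 were taken. They were 3 mature strands from 2 hairpins, rno-miR-199a-3p, rno-miR-199a-5p and rno-miR-214-3p (rno stands for Rattus norvegicus and is left out below), among 311 distinct mature sequences. miR-214-5p, the annotated 5p strand of the miR-214 hairpin, was not listed. Small RNA had been sequenced from extracellular vesicles, the membrane-bound particles cells release, of cultured bone marrow mesenchymal stromal cells of 4-week-old male SD rats. The hypoxia group was cultured at 1% oxygen and the normoxia group at 21% oxygen, with 5% CO2 in both and 3 libraries each. All cultures had been grown at 37 °C in medium with 10% fetal bovine serum. Whether the 3 libraries of a group stem from different rats or cultures is not labelled. The p-values therefore reflect spread between these libraries alone, part of which may be technical.

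The sequences are shown because the strands differ in their seed, bases 2 to 8, which sets most of a miRNA's target choice. Capitals mark the seed. The listed strands are from the deposited table, and RefSeq (assembly GRCr8) gives the same sequences. The last, unlisted strand is from RefSeq.
miR-199a-3p: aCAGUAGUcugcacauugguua
miR-199a-5p: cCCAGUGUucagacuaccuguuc
miR-214-3p: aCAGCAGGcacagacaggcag
miR-214-5p: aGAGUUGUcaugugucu
The listed strands were 22, 23 and 21 bases long in the order shown. No seed was shared, either among the 3 strands or with any other sequence in the table. The seeds of miR-199a-3p and miR-214-3p had the same base at 5 of 7 positions, those of miR-199a-3p and miR-199a-5p at 3, and those of miR-199a-5p and miR-214-3p at 2. Counted from the 5′ end, miR-199a-3p and miR-214-3p differed within the first 8 bases by U5C and U8G, with the base of miR-199a-3p written first. RefSeq holds each of the 3 sequences only once, so no identical copy annotated there shared their counts. Whether reads came from an identical copy missing from that annotation was not tested.

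In the RefSeq gene table both hairpin genes, Mir199a2 and Mir214, lie within Dnm3, and no annotated gene lies wholly between them. Mir214 also overlaps Mir3120, a miRNA gene annotated on the opposite strand, and miR-3120 was not listed. The Mir214 hairpin (RefSeq, GRCr8, plus strand) is shown because miR-214-3p was listed and miR-214-5p, as annotated there, was not. Whether reads came from other stretches of the 5p arm was not tested. Capitals mark miR-214-5p at bases 12 to 28 and miR-214-3p at bases 69 to 89.
Mir214: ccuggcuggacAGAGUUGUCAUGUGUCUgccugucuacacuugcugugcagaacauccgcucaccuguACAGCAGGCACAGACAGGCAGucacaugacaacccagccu

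Total counts were 118683 to 248542 in the hypoxia libraries and 106954 to 227149 in the normoxia libraries. Hypoxia replicate 1 stood apart, with 85 sequences listed against 129 to 183 in each other library, and with miR-320-3p at 15.4% of its counts against 0.891 to 2.92% elsewhere. Of a list of 25 mesenchymal stromal and fibroblast miRNAs, 22 were listed, the 3 strands among them, holding 36.4 to 45.1% of counts in hypoxia and 33.6 to 47.4% in normoxia libraries. Of this, miR-21-5p alone held 20.4 to 32.1% of counts in hypoxia and 20.4 to 34.6% in normoxia libraries. Of 10 blood cell miRNAs, 6 were listed and 3 tested. Among them miR-146a-5p averaged 1028 CPM in hypoxia and 1040.2 CPM in normoxia libraries. The means in the same order were 289 and 532 CPM for miR-486, and 43.2 and 74.4 CPM for miR-144-5p. The blood cell miRNAs miR-451-5p, miR-150-5p and miR-155-5p were listed but not tested, and miR-142-3p, miR-142-5p, miR-223-3p and miR-144-3p were not listed. The liver list, led by miR-122-5p, held 0.548 to 0.787% of counts in hypoxia and 0.504 to 0.949% in normoxia libraries, and how much of any miRNA came from the serum in the medium was not tested.

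miR-199a-3p was among the most abundant miRNAs of the vesicles in both groups. It is known in human cancer cells to repress the growth regulators MTOR and MET. It had 6515, 5660 and 16039 counts in hypoxia replicates 1 to 3, and 4351, 9649 and 8805 counts in normoxia replicates 1 to 3. These counts made up 5.49, 3.88 and 6.45% of all counts in the hypoxia libraries, and 4.07, 4.70 and 3.88% in the normoxia libraries. The groups overlapped, with hypoxia replicate 3 above all other libraries and hypoxia replicate 2 level with the lowest normoxia library. The 95% exact binomial interval was 6.36 to 6.55% for hypoxia replicate 3 and 3.80 to 3.96% for normoxia replicate 3. These intervals describe counting error alone, because amplified reads with no molecular identifier are not independent molecules.

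In CPM, the count of a sequence relative to the library's total, scaled by the TMM method to offset differences in library composition, miR-199a-3p averaged 50199 ± 12578 in hypoxia and 44070.2 ± 2769 in normoxia libraries (SD, n = 3 each). The log2 fold change of hypoxia against normoxia came to 0.19 (SE 0.30, 95% interval -0.45 to 0.83). In edgeR's quasi-likelihood fit its Benjamini-Hochberg adjusted p was 0.998, short of the threshold of 0.05. On a linear scale the interval ran from 0.731-fold to 1.77-fold with all 6 libraries, and from 0.926-fold to 2.10-fold without hypoxia replicate 1. The log2 fold change without that library was 0.48 (SE 0.26), with an adjusted p of 0.974 in edgeR, and without hypoxia replicate 3 it was 0.11. The median log2 fold change of all tested sequences moved as well. It was -0.14 over 107 sequences with all 6 libraries, and 0.15 over 130 without hypoxia replicate 1. In a bulk preparation, a difference in how many vesicles carry a strand and a difference in copies per vesicle cannot be told apart.

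miR-199a-5p, the other strand of the same hairpin, was listed in every library at a far lower level. It is known in rat cardiomyocytes to target the messenger RNA of the hypoxia-inducible factor HIF-1α and of the deacetylase Sirt1. Its counts were 48, 219 and 381 in hypoxia replicates 1 to 3, and 82, 230 and 346 in normoxia replicates 1 to 3. As TMM-scaled CPM these were 325, 1619 and 1536 in hypoxia and 794, 1126 and 1683 in normoxia libraries. Hypoxia replicate 1 was the lowest of the 6 libraries, and the other hypoxia libraries lay within the normoxia range.

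The means of miR-199a-5p were 1160.0 ± 725 CPM in hypoxia and 1201 ± 449 CPM in normoxia libraries (SD, n = 3 each). The log2 fold change was -0.05 (SE 0.70, 95% interval -1.56 to 1.46), with an adjusted p of 0.998 in edgeR. Without hypoxia replicate 1 the value was 0.61 (SE 0.51), and without normoxia replicate 3 it was 0.36 (SE 0.83), so its sign depended on single libraries. The median of all tested sequences was also above 0 without hypoxia replicate 1, at 0.15. Scaling by the upper quartile, or by library totals only, also gave values above 0. Of 7 miRNAs listed as known to target HIF1A, 4 were in the table, and miR-199a-5p alone had enough counts to be tested.

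miR-214-3p was the scarcest of the strands. In mouse osteoblasts it is known to target Atf4, a transcription factor of bone formation. It had 74, 42 and 148 counts in hypoxia replicates 1 to 3, and 40, 183 and 23 counts in normoxia replicates 1 to 3. As TMM-scaled CPM these were 501, 311 and 597 in hypoxia and 387, 896 and 112 in normoxia libraries. The highest and the lowest of the 6 libraries were both normoxia libraries, and the hypoxia values lay between them. The means were 469 ± 146 CPM in hypoxia and 465 ± 398 CPM in normoxia libraries (SD, n = 3 each). The fitted log2 fold change of 0.01 (SE 1.38) had a 95% interval from -2.96 to 2.99, and its adjusted p in edgeR was 0.998. This interval spans 0.128-fold to 7.94-fold, so even a change of several fold was not detectable given the spread between these libraries. Without normoxia replicate 2 the log2 fold change was 1.01, and without normoxia replicate 3 it was -0.38.

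**Figure D1:**
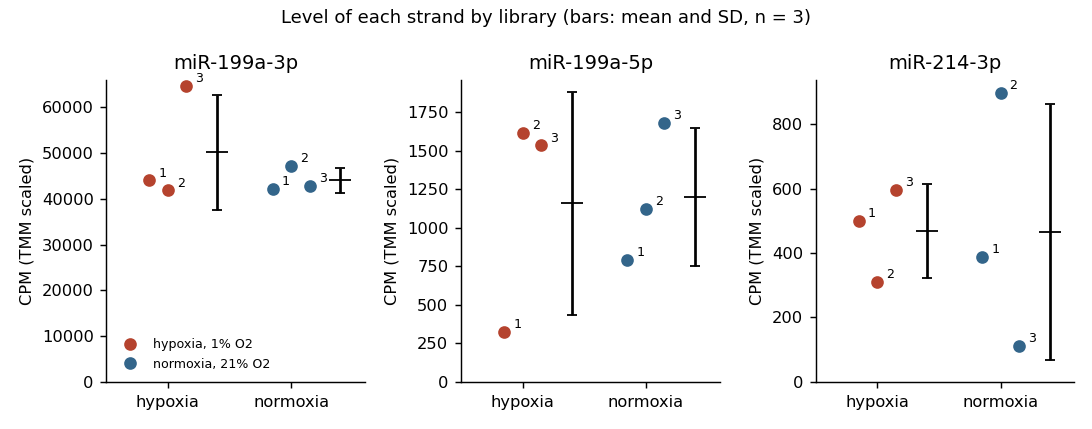
TMM-scaled CPM (linear axis from 0) of miR-199a-3p, miR-199a-5p and miR-214-3p in the hypoxia and normoxia libraries. Points are libraries with their replicate number, and bars are the group mean and SD (n = 3). The groups overlap for every strand, miR-199a-5p is lowest in hypoxia replicate 1 at 325 CPM, and miR-214-3p ranges from 112 to 896 CPM within normoxia.

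Across the whole table, edgeR called 0 of 107 tested sequences (0%) in either direction at an adjusted p under 0.05, and 1 had an unadjusted p under 0.05. DESeq2 and limma-voom also called 0, with 1 and 4 at an unadjusted p under 0.05. Run on the authors' table of normalized values (pseudocount 1), limma called 1 sequence, an unannotated one, lower in hypoxia. Groups of TMM-scaled CPM did not overlap for 8 of 107 sequences (7.48%), and none of the 3 strands was among them. All 8 were lower in hypoxia. This split depended on the scaling, with 2 higher and 5 lower under upper-quartile factors, and 3 higher and 5 lower with library totals only. The median log2 fold change of the 107 sequences was -0.14 with TMM factors and -0.02 with upper-quartile factors.

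The plot of fold changes shows how much each estimate rests on single libraries. miR-199a-3p kept its sign with each library left out, while the signs of miR-199a-5p and miR-214-3p did not hold.

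**Figure D2:**
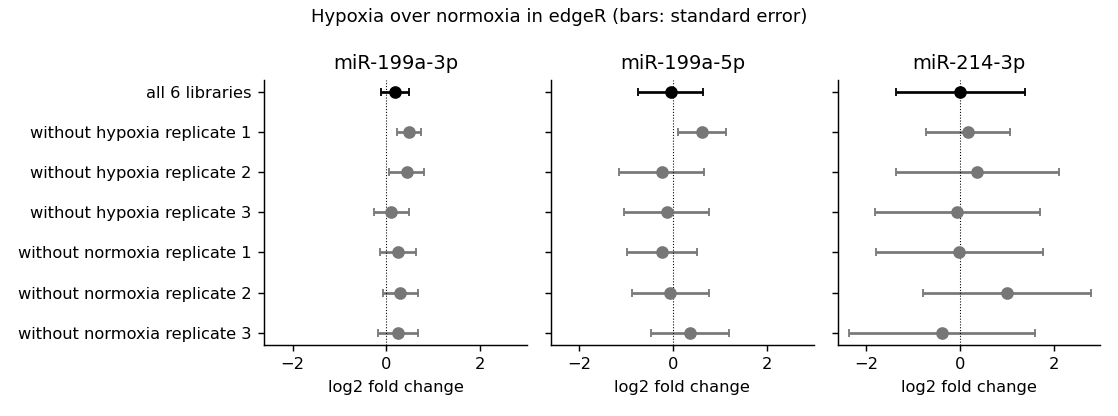
Log2 fold change, hypoxia over normoxia, of each strand in edgeR with all 6 libraries (black) and with each library left out (grey). Bars are standard errors. miR-199a-3p stays between 0.11 and 0.48, miR-199a-5p between -0.24 and 0.61, and miR-214-3p between -0.38 and 1.01.

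miR-199a-3p stood far above the other strands in every library, and miR-199a-5p above miR-214-3p in all but 1. Averaged over the 6 libraries, miR-199a-3p had 47135 CPM and ranked 7 of 107 tested sequences, miR-199a-5p had 1181 CPM and ranked 35, and miR-214-3p had 467 CPM and ranked 57. The annotated neighbours in rank of miR-199a-3p were miR-26a-5p, at 51765 CPM, and let-7f-5p, at 40711 CPM. The neighbours of miR-199a-5p were miR-221-3p and miR-30a-5p, and those of miR-214-3p were miR-98-5p and miR-27a-3p. Mature miRNAs have nearly the same length, so counts were compared directly, and how far adaptor ligation or amplification favours one sequence was not tested.

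**Figure D3:**
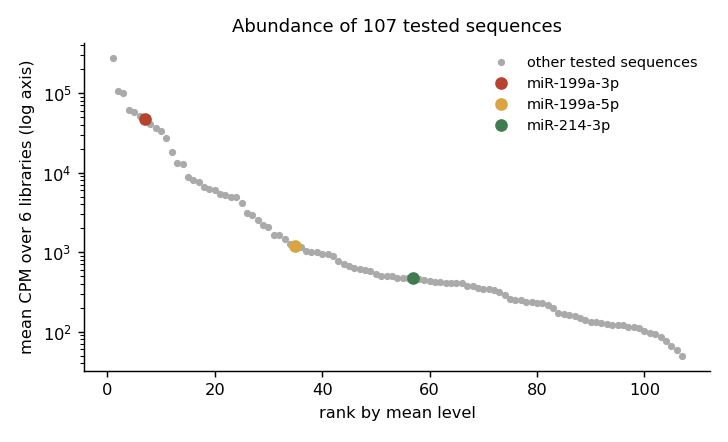
Mean TMM-scaled CPM over the 6 libraries (log axis) against rank for the 107 tested sequences. miR-199a-3p sits at rank 7, and its partner strand miR-199a-5p at rank 35, with miR-214-3p at rank 57.

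The strand ratio of miR-199a was far from even in every library. miR-199a-3p had 136, 25.8 and 42.1 times the count of miR-199a-5p in hypoxia replicates 1 to 3. In normoxia replicates 1 to 3 the ratio was 53.1, 42.0 and 25.4. Expressed as a share, miR-199a-3p made up 99.3, 96.3 and 97.7% of miR-199a counts in the hypoxia libraries, and 98.2, 97.7 and 96.2% in the normoxia libraries. Only hypoxia replicate 1 lay above the other libraries. Its ratio rests on 48 counts of miR-199a-5p, and its 95% exact binomial interval of 102 to 184 covers counting error only.

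miR-199a-3p was higher than miR-199a-5p in 6 of 6 libraries, with a mean log2 ratio of 5.49 ± 0.886 (SD over 6 libraries). The two-sided exact sign-flip permutation test over libraries gave p = 0.03125, the smallest 6 libraries allow, and 0.0469 adjusted over the 3 pairs of strands compared. The pairs with miR-214-3p were added after their counts were seen, and the adjusted value depends on them. Without hypoxia replicate 1 the mean log2 strand ratio was 5.18, and with 5 libraries the exact p cannot fall below the 0.0625 it then had. Between groups the mean log2 ratio was 5.72 ± 1.23 in hypoxia and 5.26 ± 0.541 in normoxia (SD, n = 3 each), a difference of 0.46. The two-sided exact permutation p, which cannot be under 0.1 in a design of this size, was 0.6 and its value adjusted over 7 measures was 1.0. Without hypoxia replicate 1 the difference was -0.22, so its direction came from that library.

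**Figure D4:**
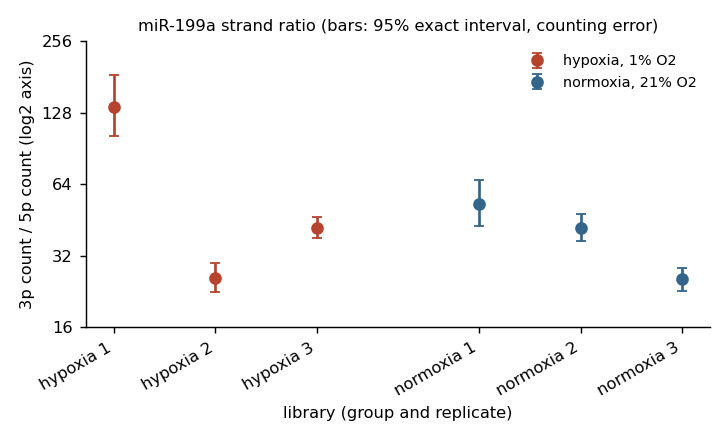
Count of miR-199a-3p divided by that of miR-199a-5p in each library (log2 axis). Bars are 95% exact binomial intervals, which cover counting error only. Hypoxia replicate 1 is at 136, and the other 5 libraries lie between 25.4 and 53.1, with hypoxia and normoxia libraries side by side.

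The skew of miR-199a was not the largest in the table. Both strands were listed for 34 hairpins, and with counts summed over the 6 libraries the 3p strand was the higher one for 21 and the 5p strand for 13. The median size of the log2 ratio, in either direction, was 3.64. For miR-199a it was 5.29, from 51019 counts of the 3p and 1306 of the 5p strand, which ranked 13 of 34. Among the larger ratios, those of miR-27b and miR-152 came from opposite strands with 2 counts in 1 library. Those of miR-361 and miR-99b rested on more, with 53 counts of the 5p strand of miR-361 in 3 libraries and 182 counts of the 3p strand of miR-99b in 5 libraries. Hairpins with an unlisted strand, among them Mir214, are not part of this ranking. Both strands had a count in all 6 libraries for 3 hairpins, miR-199a, let-7d and miR-140. The mean log2 ratio of 3p over 5p over the libraries was 5.49 for miR-199a, -3.10 for let-7d and -0.169 for miR-140. This ratio ranged over the libraries by 2.42 for miR-199a, 3.33 for let-7d and 3.37 for miR-140.

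The neighbouring hairpins were represented unevenly. The count of miR-199a-3p was 88.0, 135 and 108 times that of miR-214-3p in hypoxia replicates 1 to 3, and 109, 52.7 and 383 times in normoxia replicates 1 to 3. The hypoxia ratios lay within the wider normoxia range. Over the 6 libraries the mean log2 ratio was 6.89 ± 0.946 (SD), above 0 in 6 of 6 libraries, with an exact sign-flip permutation p of 0.03125 and 0.0469 adjusted over the 3 pairs. The ratios to miR-214-3p were chosen after their counts were seen, so their sign-flip p-values only describe these libraries. miR-199a-5p was above miR-214-3p in 5 of 6 libraries, with the exception of hypoxia replicate 1, where it had 48 counts against 74. Its mean log2 ratio over miR-214-3p was 1.40 ± 1.59 (SD over 6 libraries), with an exact sign-flip permutation p of 0.0938, so the difference between these neighbouring levels was within their spread.

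Between groups, the mean log2 ratio of miR-199a-3p over miR-214-3p was 6.76 ± 0.307 in hypoxia and 7.02 ± 1.45 in normoxia (SD, n = 3 each), with a two-sided exact permutation p of 0.8. For miR-199a-5p over miR-214-3p the means were 1.04 ± 1.53 in hypoxia and 1.76 ± 1.9 in normoxia (SD, n = 3 each), with an exact permutation p of 0.7. Both adjusted values were 1.0. Each difference, -0.26 and -0.72 in that order, was above 0 without normoxia replicate 3, at 0.52 and 0.36. That library held 23 counts of miR-214-3p. For the second ratio it was also above 0 without hypoxia replicate 1, at 0.11.

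As a share of all counts, the 3 strands together held 5.44 ± 1.31% in hypoxia and 4.37 ± 0.459% in normoxia (SD, n = 3 each). The difference of 1.07 percentage points had an exact permutation p of 0.3, and 1.0 adjusted over the 7 measures. miR-199a-3p alone accounted for 5.27 ± 1.30% in hypoxia and 4.21 ± 0.428% in normoxia (SD, n = 3 each). miR-199a-5p held 0.115 ± 0.0642% in hypoxia and 0.114 ± 0.0379% in normoxia (SD, n = 3 each). miR-214-3p held 0.0502 ± 0.0186% in hypoxia and 0.0455 ± 0.0401% in normoxia (SD, n = 3 each). The exact permutation p was 0.3 for miR-199a-3p, 0.9 for miR-199a-5p and 1.0 for miR-214-3p, and 1.0 for each after adjustment.

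miR-199a-3p varied little from library to library. Its coefficient of variation over the 6 libraries was 18.7% of the mean CPM, the second lowest of the 107 tested sequences after let-7a-5p, at 14.3%, while the median was 65.8%. With library totals only it was 22.0% and ranked 7 of 107. miR-199a-5p had 45.7% and miR-214-3p had 57.3%, both below the median. The spread of all sequences widened toward low levels, and the strands followed that order, as the plot of spread against level shows.

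**Figure D5:**
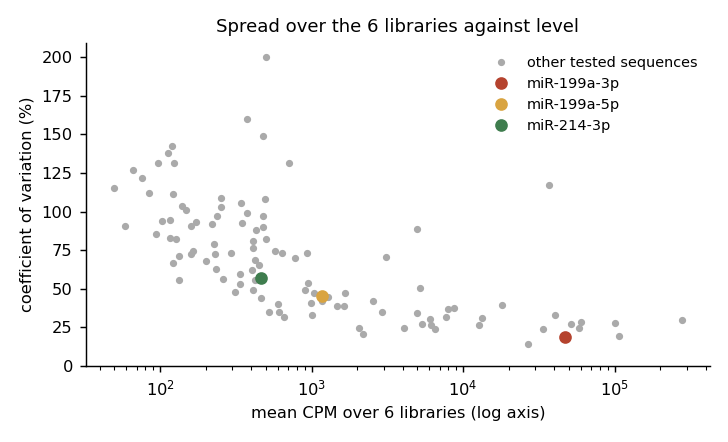
Coefficient of variation of TMM-scaled CPM over the 6 libraries against mean CPM (log axis) for the 107 tested sequences. miR-199a-3p lies at 18.7%, miR-199a-5p at 45.7% and miR-214-3p at 57.3%, in a cloud that narrows and falls as the level rises.

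Likeness of profile was measured as the root mean square difference of log2 CPM over the 6 libraries, each miRNA centred on its own mean. Among the 99 other annotated miRNAs tested, the nearest to miR-199a-3p were miR-152-3p at 0.215, let-7a-5p at 0.286 and miR-27b-3p at 0.310, against a median of 1.15. Its partner miR-199a-5p came at place 43, with 0.808, and miR-214-3p at place 46, with 0.860. The nearest to miR-199a-5p were miR-30d-5p at 0.354, let-7d-5p at 0.372 and miR-224-5p at 0.475, against a median of 1.75. The nearest to miR-214-3p were miR-151-3p at 0.613, miR-126a-3p at 0.715 and miR-27b-3p at 0.772, against a median of 1.5. In the other direction, miR-199a-3p came at place 18 for miR-199a-5p and at place 10 for miR-214-3p. For miR-199a-5p, miR-214-3p came at place 46, and in reverse the place was 49. The 3 strands were therefore not each other's nearest profiles. A steady or abundant miRNA has a small difference from many others by this measure, and all profiles share the same 6 libraries.

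Other mesenchymal miRNAs were read from the list of 25. Apart from the 3 strands, 17 of its miRNAs were tested. Of these, 8 had a log2 fold change above 0, 9 had one below 0 and edgeR called 0, with a median of -0.01 beside -0.14 for all tested sequences. miR-21-5p, the most abundant of them and known for its part in fibrosis, averaged 263509 CPM in hypoxia and 293469.85 CPM in normoxia (log2 fold change -0.16, SE 0.36). miR-22-3p had the smallest unadjusted p of the list and a log2 fold change of 0.78 (SE 0.55), with an adjusted p of 0.998 in edgeR. It had 7470.2 CPM in hypoxia replicate 1, above the other 5 libraries, and without that library its log2 fold change was 0.13 (SE 0.44). Of 12 miRNAs linked to fibrosis, a list that also holds the 3 strands, 6 were tested, 2 above 0 and 4 below. Of these 0 passed, and the median was -0.10. Apart from the 3 strands, 3 were tested, 0 above 0 and 3 below, with a median of -0.36.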

How the data were processed

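Per the labels' protocols, miRNA was isolated from vesicle RNA, and adaptor-ligated, amplified, size-selected libraries were run on a HiSeq instrument. Tools named in the submitters' processing notes are Novoalign 3.02.12 and cutadapt 1.9.3, with rn6 as the build. How tags were counted, and against which annotation, is not given in the sources used here. Per the file headers the authors deposited raw tag counts and normalized tag counts. The authors' normalized values, deposited as whole numbers near a fixed multiple of each library's counts, are called a score here because no method is stated. Blank cells were taken as 0. The smallest listed count is 2, so low values may be missing.

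The 353 rows were reduced to 311 distinct mature sequences. The count model was that of edgeR 4.0.16, run in R 4.3.3 (filterByExpr with minimum count 10 and total 15, TMM, robust quasi-likelihood, Benjamini-Hochberg over 107 sequences), checked on simulated data. All 3 strands passed the filter with counts in all 6 libraries. The standard error was taken from the fitted value and its F statistic. Alternatives used DESeq2 1.42.0 and limma 3.58.1. Single values were compared by exact permutation in scipy 1.17.1. Profiles used log2(CPM + 1). No 2 libraries of a group agreed within sampling noise. GRCr8 differs from rn6, so no coordinates are given.

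The strands, lists and tests were chosen with earlier results of these data known, and the ratios to miR-214-3p, and the values of miR-22-3p and of the cell type lists without hypoxia replicate 1, after their counts were seen. Named miRNAs are the strands, their neighbours in rank and the 3 nearest profiles, hairpins with both strands in all libraries, and in each list the most abundant and that with the smallest p. Lists of blood cell, endothelial, epithelial, striated muscle and neural markers were summed to check the cell type.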

Additional observations from a re-analysis of the deposited data

How the results depend on the processing

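None of the 3 strands passed the test under any alternative. miR-199a-3p stayed above 0 in all 13 other fits and ranged from 0.11 to 0.48 with a library left out. miR-199a-5p was above 0 with upper-quartile factors (0.085), library totals only (0.012), a mean count of at least 50 (0.12) and annotated miRNAs only (0.062), and ranged from -0.24 to 0.61 with a library left out. The cause was not tested. miR-214-3p stayed above 0 in the 13 other fits and ranged from -0.38 to 1.01 with a library left out. The count of called sequences was 1 with the authors' normalized table and a pseudocount of 1, and 0 in every other fit. With a library left out it was 0 to 0. The same range was -0.22 to 0.98 for the difference in log2 strand ratio, -0.91 to 0.52 and -1.43 to 0.36 for the log2 ratios of miR-199a-3p and miR-199a-5p to miR-214-3p, and 5.18 to 5.66 for the strand difference within libraries, where 5 libraries cannot reach the threshold. For shares, in percentage points, it was 0.470 to 1.76 for miR-199a-3p, -0.0184 to 0.0380 for miR-199a-5p, -0.0130 to 0.0265 for miR-214-3p and 0.452 to 1.76 for all 3. Other denominators and the authors' table turned no share or ratio. The cause of the reversals was not tested.

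The replicate numbers were not taken as pairs, since the labels do not say that a number pairs cultures. Same-numbered libraries had correlations of 0.228, 0.0313 and 0.124 in their deviations from the group means. Differently numbered libraries had correlations from -0.299 to 0.201, so these values do not settle whether the numbers pair. With the replicate number as a block the log2 fold changes were 0.16 for miR-199a-3p, -0.29 for miR-199a-5p and 0.41 for miR-214-3p, with 0 sequences called, and the exact sign-flip permutation p for the strand ratio was 0.5. Mean counts per library were 8503 for miR-199a-3p, 218 for miR-199a-5p and 85 for miR-214-3p, so relative counting error is widest for miR-214-3p. Its share in normoxia libraries still differed beyond counting error, with exact intervals of 0.0766 to 0.103% in replicate 2 and 0.00642 to 0.0152% in replicate 3.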

Other observations

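The lists of other cell types held small shares of counts beside the mesenchymal list, but not all were small beside the scarcer strands. On average miR-199a-5p held 0.115% in hypoxia and 0.114% in normoxia, and miR-214-3p 0.0502% and 0.0455%. The liver list was above both strands in every library. The striated muscle and neural lists were above miR-214-3p in every library, and the blood cell, endothelial and epithelial lists were not. The striated muscle list held 0.147 to 1.89% in hypoxia and 0.324 to 0.506% in normoxia libraries, and the neural list 0.0877 to 0.425% in hypoxia and 0.122 to 0.308% in normoxia libraries. Hypoxia replicate 1 held the highest hypoxia share of both lists. The other hypoxia libraries held 0.147 and 0.254% for muscle, and 0.175 and 0.0877% for neural miRNAs. The blood cell list held 0.0598 to 0.198% in hypoxia and 0.161 to 0.175% in normoxia libraries, with hypoxia replicate 1 the lowest of the 6. The endothelial list held 0.0267 to 0.0793% in hypoxia and 0.0423 to 0.0964% in normoxia libraries. The epithelial list held at most 0.00411% in hypoxia and 0.0128% in normoxia libraries. Of its 7 miRNAs, 2 were listed, miR-200b-3p and miR-429, and 0 were tested. The unlisted ones were miR-200a-3p, miR-200c-3p, miR-141-3p, miR-205 and miR-203a-3p. The 3 strands belong to none of these lists.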
